A study of Rattus norvegicus with 6 samples.

Results

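The cytosolic sulfotransferases, the Sult genes, were measured in rat liver after oral tienilic acid (TA), a uricosuric diuretic that was withdrawn because of hepatitis. They were taken as every probe set whose only gene symbol in the platform annotation begins with Sult. This gave 15 probe sets of 14 genes, among 31042 probe sets and 14217 named genes in all. The series title raises early gene induction by TA and a possible danger signal, and the comparisons of TA with vehicle address the induction. Male Sprague Dawley rats of 210 to 230 g received TA at 100 mg/kg by gavage in sodium bicarbonate, or the bicarbonate alone. A single dose preceded the livers of 6 h, and doses at 0 and 16 h those of 24 h, so that time and number of doses differ together. At each time 2 arrays held RNA of 1 TA animal each, and 1 array held RNA pooled from 2 vehicle rats. In all, 8 rats contributed to 6 Affymetrix arrays, and neither vehicle group has a replicate.

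Cytosolic sulfotransferases transfer a sulfonate group from the donor PAPS to small molecules, which makes them more soluble and easier to excrete. The Sult1 enzymes act mainly on phenols, thyroid hormones and estrogens, and the Sult2 enzymes on hydroxysteroids and bile acids. For some aromatic amines and alcohols, sulfonation instead forms a reactive product. In rat liver several members differ in level between the sexes.

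In RefSeq's gene table for the GRCr8 assembly, most of the measured family lies in 3 clusters. Sult1c2a, Sult1c2 and Sult1c3 lie on chromosome 9, with Sult1c2al1 directly between the last pair. Sult1e1, Sult1d1 and Sult1b1 are direct neighbours on chromosome 14. Sult2a6, Sult2a1 and Sult2a2 lie together on chromosome 1. RefSeq promoters were matched by symbol for 13 of the 14 genes, all but Sult4a1, and the 250 bases before each annotated start were aligned in pairs.

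The promoters of the Sult2a genes are shown first, because they are close copies of each other and hold a motif that few promoters hold. Sult2a6 and Sult2a1 were 98.0% identical over all 250 bases. Over 237 aligned bases Sult2a6 and Sult2a2 were 92.0% identical, and Sult2a1 and Sult2a2 90.3%. The stretches below run 5′ to 3′ on the minus strand of GRCr8, and capitals mark GGTCATGA, the core of an inverted repeat without spacer. As background, this element of the rat Sult2a promoter is known as a binding site of nuclear receptors for bile acids and xenobiotics. The Sult2a6 stretch is chr1:84097972-84098058, the Sult2a1 stretch chr1:84639111-84639197 and the Sult2a2 stretch chr1:85104687-85104774.
Sult2a6: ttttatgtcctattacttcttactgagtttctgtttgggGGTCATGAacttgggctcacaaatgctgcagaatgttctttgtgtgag
Sult2a1: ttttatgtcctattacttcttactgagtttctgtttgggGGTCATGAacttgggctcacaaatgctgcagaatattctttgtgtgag
Sult2a2: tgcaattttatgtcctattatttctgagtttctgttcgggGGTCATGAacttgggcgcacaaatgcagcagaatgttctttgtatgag

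The stretches of Sult2a6 and Sult2a1 differ at 1 of 87 bases. GGTCATGA, searched on both strands, was in 3 of the 13 Sult promoters and in 0.562% of 33469 RefSeq promoters of the same length. The motif was already known from the rat Sult2a promoter and the 3 are close copies, so these shares are no test. The letters TATAAA of the TATA box were in 5 of the 13, Sult1c2a, Sult1d1 and the 3 Sult2a genes, against 12.9% of all. They lay 50 to 45 bases before the start in Sult2a6 and Sult2a1, and at 42 to 37 and 16 to 11 in Sult2a2. In Sult1c2a and Sult1d1 they lay only far from the start, between 248 and 240 bases before it. The STAT palindrome TTCNNNGAA was in 0 of the 13, against 7.67%. A match describes letters only and is not evidence of binding.

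The Sult1c promoters are shown because the probe sets of these 3 genes lay on the same side of vehicle at both times. Each stretch is the 100 bases before the annotated start in GRCr8. Sult1c2 is chr9:7436881-7436980 on the plus strand, Sult1c2a chr9:7103203-7103302 on the minus strand and Sult1c3 chr9:7594257-7594356 on the minus strand. None of the searched motifs lies in these stretches, so that no letter is capitalised.
Sult1c2: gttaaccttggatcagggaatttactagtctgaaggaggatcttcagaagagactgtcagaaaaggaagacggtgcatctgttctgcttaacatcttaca
Sult1c2a: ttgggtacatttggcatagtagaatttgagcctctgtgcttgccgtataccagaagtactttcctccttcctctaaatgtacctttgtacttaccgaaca
Sult1c3: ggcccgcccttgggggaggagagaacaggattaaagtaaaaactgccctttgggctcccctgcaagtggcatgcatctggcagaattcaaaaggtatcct

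The Sult1c promoters were 51.5% to 57.5% identical to each other over aligned parts of 175 to 235 bases, within the 49.7% to 64.9% of the 72 other Sult pairs.

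All values below are the deposited log2 values, and a difference of 1 is 2-fold. Of all probe sets, 56.5% averaged under 4, a dense low range in which differences are compressed. The family divided here: 8 genes were above 4 on at least 1 array and 6 were not. That line was drawn after the values were seen. Of the 15 probe sets, 12 passed the filter for testing, a mean above 2.82 over the 6 arrays, and 1 of the 2 probe sets of Sult2b1, Sult4a1 and Sult6b2 did not.

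Array medians lay between 3.27 and 3.31 in the table, which is already normalised across arrays. For the gene and marker lists, a gene is called measured where a probe set of it passed the filter. Of the 10 hepatocyte markers 9 were measured, at a mean level of 15.06 to 15.23. Of 5 kidney markers on the array 0 passed the filter. Of 8 intestine and stomach markers on the array 2 passed, Fabp2 at 7.11 to 8.52 and Tff3 at 3.98 to 4.11. As a measure of RNA integrity, the 3′ probe set of GAPDH exceeded the 5′ one by 2.26 in TA animal 1 of 6 h and by 1.82 to 2.04 on the others. For actin the same difference was 4.31 in that animal, within the 4.17 to 4.36 of the others. By the hybridisation times in the array settings, the vehicle pool and TA animal 1 of 6 h came first. The other 4 arrays followed 91 to 92 minutes later, and these are taken here as 2 fluidics runs.

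**Figure D1:**
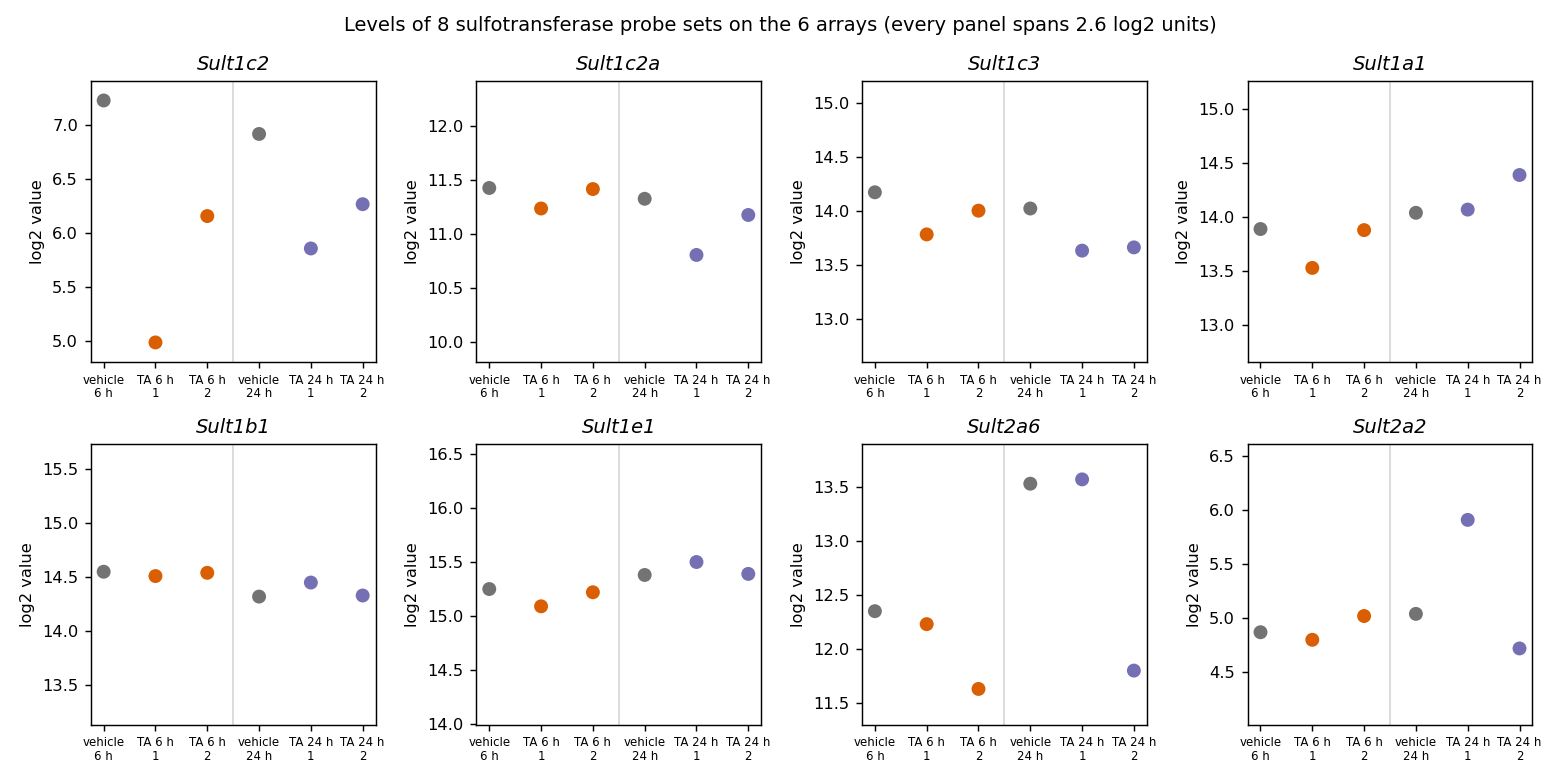
Deposited log2 values of 8 sulfotransferase probe sets, 1 panel a gene, with the 6 arrays on the x axis. Grey points are vehicle pools, orange points TA animals at 6 h and violet points TA animals at 24 h. Sult1c2 ran from 4.99 to 7.23 with both pools on top, and Sult2a6 from 11.63 to 13.57 with TA animal 2 of 24 h far below animal 1.

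Sult1c2, known in the rat as a sulfotransferase of kidney and stomach, lay furthest below vehicle of all members at 6 h. At 24 h its mean difference was, rounded, that of Sult2a6 as well. Its probe set read 7.23 in the vehicle pool of 6 h, 4.99 in TA animal 1 and 6.16 in TA animal 2. The pool of 24 h read 6.92, and its TA animals 5.86 and 6.27. All 4 treated animals thus lay below both pools, with 1.16 between the animals of 6 h and 0.41 between those of 24 h. The log2 difference was -1.65 ± 0.57 (SE, n = 2 TA animals) at 6 h, a level 3.15-fold lower, with a 95% interval from -3.31 to 0.00. At 24 h it was -0.85 ± 0.57, with an interval from -2.51 to 0.81. Neither passed limma's test, with calls at an adjusted p under 0.05 (adjusted p = 0.847 and 1.0).

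A further probe set is assigned to both Sult1c2 and RGD1562392, which RefSeq lists as an older name of Sult1c2a, and so falls outside the rule. It read 6.31 in the vehicle pool of 6 h, against 5.21 and 5.32 in the TA animals. The pool of 24 h read 5.65, against 4.78 and 5.32. This probe set too was lower in all 4 TA animals than in either pool.

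Sult1c3, earlier called St1c1 and known for activating N-hydroxy arylamines in male rat liver, showed smaller differences on the same side. The pool of 6 h was at 14.17, and the TA animals at 13.78 and 14.00. The pool of 24 h was at 14.02, and the TA animals of that time at 13.63 and 13.66. All 4 TA animals lay below both pools, though TA animal 2 of 6 h was within 0.02 of the pool of 24 h. The log2 difference was -0.28 ± 0.14 at 6 h and -0.38 ± 0.14 at 24 h, with 95% intervals from -0.69 to 0.12 and from -0.78 to 0.02 (limma, adjusted p = 0.940 and 0.950).

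Sult1c2a, a further gene of the cluster, read 11.43 in the pool of 6 h, and 11.24 and 11.42 in the TA animals. Vehicle of 24 h read 11.33, and the TA animals 10.81 and 11.18. Both times had the TA animals below their own pool, by as little as 0.01 in animal 2 of 6 h. The log2 difference was -0.10 ± 0.21 at 6 h and -0.33 ± 0.21 at 24 h (limma, adjusted p = 1.0 for both). Transcripts of the Sult1c genes were not compared, and whether their probe sets read each other's RNA was not tested.

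Of the 12 tested members, only these 3 were lower than the pool of their time in all 4 animals, where 14.1% of all tested probe sets were. Sult1c2 and Sult1c3 were also lower than both pools in all 4, as were 5.43% of probe sets. At 6 h Sult1c2 was the 1 member at least 2-fold lower in both animals, as were 0.295% of probe sets. Both animals of a time were set against the same pool, so that a shared direction is not independent evidence. TA animal 1 of 6 h, with the lowest Sult1c2 value, had the highest GAPDH difference but not the highest actin difference, and without it the Sult1c2 difference at 6 h was -1.07. The part of RNA integrity in this was not tested. Of the 10 Kupffer cell and macrophage markers 7 were measured, at mean levels of 8.93 in the pool and 9.34 and 9.03 in the animals of 6 h, and 8.82, 8.61 and 8.99 at 24 h. Of the 8 stellate cell markers 7 were measured, at mean levels of 9.44, 9.95 and 9.27 in these arrays of 6 h and 9.16, 8.48 and 8.63 in those of 24 h. In bulk liver, fewer cells of a type and less RNA per cell cannot be told apart, and the part of these cells was not tested.

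Sult1a1, the main phenol sulfotransferase of liver, read 13.89 in vehicle of 6 h, beside 13.53 and 13.88 after TA. Vehicle of 24 h read 14.04, beside 14.07 and 14.39 after TA. Both TA animals were thus below the pool at 6 h and above it at 24 h, by as little as 0.01 and 0.03. Differences were -0.18 ± 0.24 at 6 h and 0.19 ± 0.24 at 24 h, with 95% intervals from -0.87 to 0.50 and from -0.49 to 0.87 (limma, adjusted p = 1.0 for both).

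Sult1e1, the estrogen sulfotransferase, which is abundant in male rat liver, read 15.25 in vehicle of 6 h, beside 15.09 and 15.22 after TA. At 24 h vehicle read 15.38, beside 15.50 and 15.39 after TA. On the log2 scale the differences were -0.10 ± 0.12 at 6 h and 0.07 ± 0.12 at 24 h. The 95% intervals, from -0.45 to 0.24 and from -0.28 to 0.41, hold no change as large as 2-fold in either direction (limma, adjusted p = 1.0 for both).

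Sult1b1, which sulfonates thyroid hormones and simple phenols, read 14.55 in vehicle of 6 h, beside 14.51 and 14.54 after TA. At 24 h vehicle read 14.32, beside 14.45 and 14.33 after TA. The range over all 6 arrays was 0.24, the narrowest of the 8 genes above 4. Its differences of -0.03 ± 0.11 and 0.07 ± 0.11 had 95% intervals from -0.34 to 0.28 and from -0.24 to 0.39 (limma, adjusted p = 1.0 for both). The 0.24 between its pools was larger than either difference.

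Sult2a6, a hydroxysteroid and bile acid sulfotransferase, varied most between animals of 1 group. It read 12.35 in vehicle of 6 h, beside 12.23 and 11.63 after TA. At 24 h vehicle read 13.53, TA animal 1 13.57 and TA animal 2 11.80. TA animal 2 minus animal 1 at 24 h was thus -1.77, and the pools lay 1.18 apart. Against vehicle the log2 difference was -0.42 ± 0.86 at 6 h and -0.85 ± 0.86 at 24 h, with 95% intervals from -2.91 to 2.07 and from -3.34 to 1.64 (limma, adjusted p = 1.0 for both).

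Sult2a2, of the same cluster, read 4.87 in vehicle of 6 h, beside 4.80 and 5.02 after TA. At 24 h vehicle read 5.04 and the TA animals 5.91 and 4.72, so that animal 1 was the highest of the 6 arrays and animal 2 the lowest. The log2 difference was 0.04 ± 0.56 at 6 h and 0.27 ± 0.56 at 24 h (limma, adjusted p = 1.0 for both). Sult2a2 and Sult2a6 were the 2 members whose animals of 24 h lay at least 1 apart, where 2.89% of all tested probe sets did, and in both genes animal 2 was the lower. Their transcripts were not compared, and whether their readings are separate was not tested.

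The other 6 genes stayed within the low range on all arrays. Sult2a1, a hydroxysteroid sulfotransferase, read 2.99 to 3.10. Sult1d1 read 3.13 to 3.28 and Sult5a1 3.36 to 3.59. Sult2b1, which sulfonates cholesterol, read 2.76 to 2.92 on 1 probe set and 2.76 to 2.80 on the other. Sult6b2 read 2.67 to 2.71 and Sult4a1, known from brain, 2.23 to 2.25. At this level a probe set gives no usable order between arrays.

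**Figure D2:**
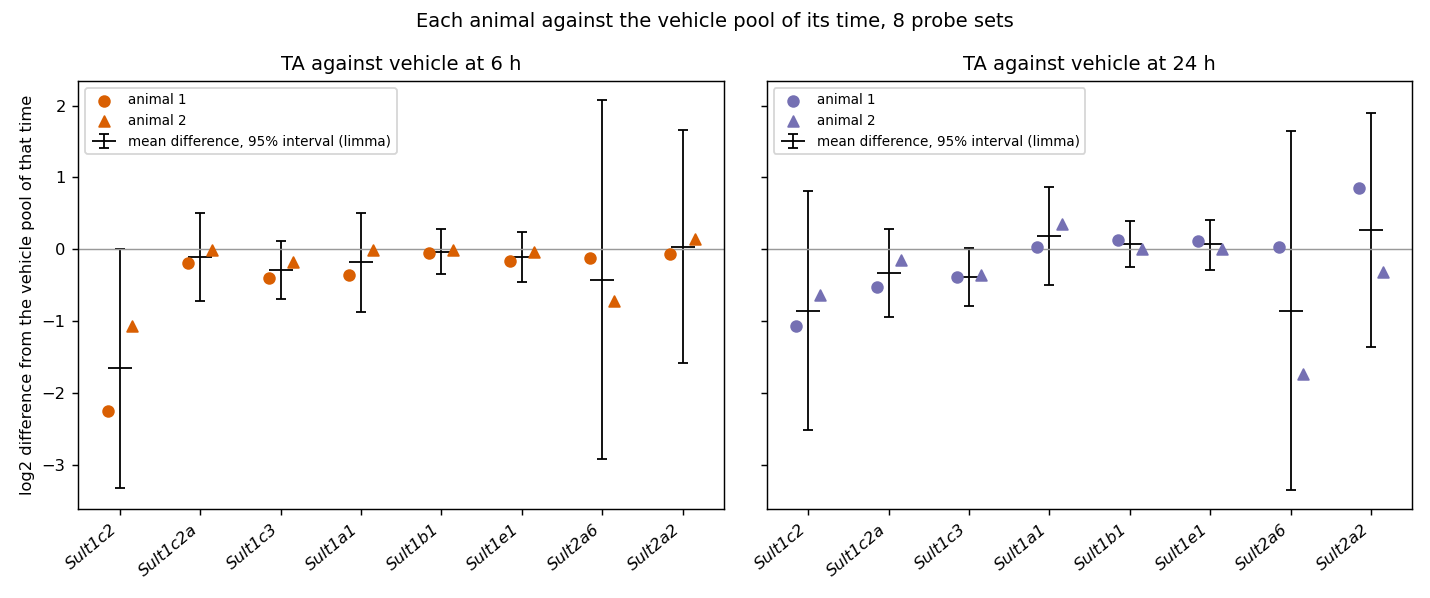
Log2 difference of each TA animal from the vehicle pool of its time, at 6 h on the left and 24 h on the right, for 8 genes. Circles and triangles are animals 1 and 2, and bars are limma's mean difference with its 95% interval. Sult1c2, at -2.24 and -1.07 at 6 h, lies lowest there, and the interval of Sult2a6 is the widest at both times.

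In the test across all probe sets, 0 of the 12 tested members passed at 6 h, where 0 of 18625 probe sets did (0%). At 24 h, 0 of 12 members passed, where 0.00537% of probe sets did. The difference between the effects at the 2 times was also tested, and 0 of 12 members passed, against 0.00537% of probe sets. Of the 18625 probe sets, 1087 had an unadjusted p under 0.05 at 6 h and 984 at 24 h. Without any difference a share of about 0.05 would fall there, so these are not counts of changed probe sets. The smallest unadjusted p of a member in limma's test was 0.0502, for Sult1c2 at 6 h. At 24 h the smallest was 0.0588, for Sult1c3. These tests rest on 2 residual degrees of freedom, so that a missed threshold does not show that levels were the same.

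By direction alone, 7 of the 12 tested members were lower than the pool in both TA animals at 6 h, where 36.3% of probe sets were, and 1, Sult5a1, was higher in both, where 21.0% were. The 7, all among the 8 genes above 4, were Sult1a1, Sult1b1, Sult1c2, Sult1c2a, Sult1c3, Sult1e1 and Sult2a6. At 24 h, 5 of 12 were lower in both, against 36.8%, and 4 were higher in both, against 24.6%. Of the 8 genes above 4, 3 were lower in both at 24 h, the Sult1c genes, and 3 were higher in both, Sult1a1, Sult1b1 and Sult1e1. The remaining calls by direction, Sult5a1 at both times and Sult2b1 and Sult2a1 at 24 h, lie in the low range without a usable order. The median log2 difference of the 8 genes above 4 was -0.14 at 6 h and -0.13 at 24 h. Over all tested probe sets it was -0.02 and -0.01, but these include the low range, where differences are compressed. Tested probe sets above 4 were not summarised apart, so these medians are of unlike sets.

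TA animals of 24 h were then set against those of 6 h, the comparison with 2 animals on both sides. Sult1a1 was 0.52 ± 0.19 higher at 24 h and Sult1e1 0.29 ± 0.097 higher, and the animals of both times did not overlap for either gene. Neither passed limma's test (adjusted p = 0.358 and 0.325), and 0 of the 12 tested members did, where 0% of probe sets did. Sult1b1, Sult1c2a and Sult1c3 were lower at 24 h without overlap, by -0.13 ± 0.088, -0.33 ± 0.17 and -0.25 ± 0.11 (adjusted p = 0.601, 0.50 and 0.445). Of the 12 members 6 did not overlap between the times, near the 42.6% of all probe sets, and 5 of these 6 are among the 8 genes above 4. The other was Sult5a1, in the low range. For each of Sult1a1, Sult1e1, Sult1b1, Sult1c2a and Sult1c3 the vehicle pool of 24 h differed from that of 6 h in the same direction, by 0.15, 0.12, -0.24, -0.10 and -0.15. Sult2a6 differed most between the pools, by 1.18. By the hybridisation times, the pool and TA animal 1 of 6 h fell in the earlier inferred fluidics run. TA animal 2 of 6 h and all arrays of 24 h fell in the later. The part of the run in these differences, and in those from vehicle at 6 h, was not tested.

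Because each pool is 1 array, the choice of control was examined. Against the pool of the other time, Sult1c2 was -1.34 at 6 h and -1.16 at 24 h, and Sult1c3 -0.13 and -0.53. Sult1c2a was 0.00 at 6 h and -0.43 at 24 h. Sult2a6 moved most, from -0.42 to -1.60 at 6 h and from -0.85 to 0.34 at 24 h. Sult1b1 turned from -0.03 to 0.20 at 6 h and from 0.07 to -0.16 at 24 h.

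**Figure D3:**
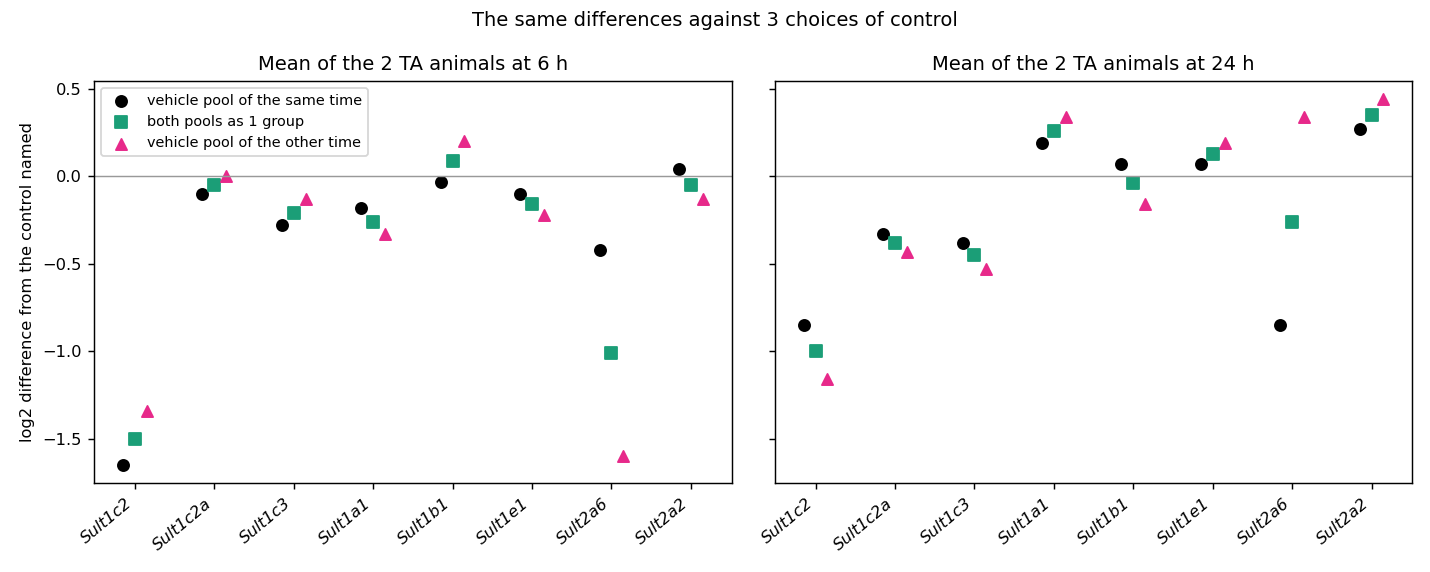
Mean log2 difference of the 2 TA animals of 6 h (left) and of 24 h (right) for 8 genes, against the vehicle pool of the same time (circles), both pools as 1 group (squares) or the pool of the other time (triangles). Sult1c2 lies between -1.65 and -0.85 under all 3 choices at both times, and Sult2a6 spreads from -1.60 to 0.34.

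The supply of the sulfonate donor showed no called difference. Of 12 listed symbols for PAPS synthesis, sulfate transport and removal of the by-product PAP, 10 were measured, and 0 were called in either direction at either time. Their median difference was 0.02 at 6 h and 0.04 at 24 h. Papss2, a PAPS synthase, read 12.59 in vehicle of 6 h, beside 12.76 and 12.71 after TA. It read 12.62 in vehicle of 24 h, beside 12.79 and 12.77, which gave differences of 0.15 ± 0.09 and 0.16 ± 0.09 (limma, adjusted p = 1.0 for both). The other Papss2 probe set had 0.08 at 6 h and 0.48 at 24 h. Bpnt2, a Golgi PAP phosphatase, had -0.27 ± 0.09 at 6 h (adjusted p = 0.847), but its other 3 probe sets had -0.19, -0.08 and 0.37. Slc35b2, a PAPS transporter of the Golgi, had 0.32 ± 0.17 at 24 h (adjusted p = 1.0), and the anion exchanger Slc26a6 0.61 ± 0.26 at 6 h (adjusted p = 0.903). Slc26a6 read 3.98 in vehicle of 6 h, beside 4.81 and 4.37 after TA, so its difference starts in the low range.

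Among 12 measured genes of cysteine metabolism, which includes its oxidation to sulfate, 0 were called, with medians of 0.02 at 6 h and 0.18 at 24 h. Cbs, Cth and Csad are on this list without oxidising cysteine to sulfate, so its counts are not of that route alone. At 24 h, 9 of the 12 were higher in both animals and 1 lower, where 24.6% and 36.8% of all tested probe sets were. Suox, sulfite oxidase, read 10.44 in vehicle and 10.96 and 11.06 after TA, a difference of 0.57 ± 0.13 (limma, adjusted p = 0.904). The pool of 6 h read 10.79, close to the TA animals of that time at 10.94 and 10.75. Sqor, which oxidises sulfide, was at least 2-fold from its pool in both animals at both times, but on opposite sides. It was at 11.23, 8.99 and 9.77 in the pool and animals of 6 h, and at 8.79, 10.02 and 12.00 in those of 24 h. Its differences of -1.85 ± 0.97 and 2.22 ± 0.97 were not called (adjusted p = 0.970 and 0.989), and its own pools stood apart at 11.23 and 8.79. Csad, which leads cysteine toward taurine, had 0.33 ± 0.14 and -0.40 ± 0.14 (adjusted p = 0.900 and 0.943).

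Neighbouring enzyme families were likewise uncalled, with 0 in each direction at each time. Sulfatases, which remove sulfate, had 9 measured genes with medians of -0.11 at 6 h and 0.03 at 24 h, with Arsa at -0.44 ± 0.22 and Arsb at -0.41 ± 0.18 at 6 h (adjusted p = 0.947 and 0.921). Sumf2 and Sulf2 had 0.23 ± 0.18 and 0.38 ± 0.23 at 24 h (adjusted p = 1.0 for both). Golgi sulfotransferases, which modify proteins and sugar chains, had 22 genes on the array, of which 9 passed the filter, with medians of -0.11 and -0.02. Among these, Chst1, Chst4 and Chst8 lay in the low range without a usable order. Tpst1, a tyrosylprotein sulfotransferase, read 12.09 in vehicle of 6 h, beside 11.47 and 11.55 after TA, a difference of -0.57 ± 0.10 (adjusted p = 0.760), and at 24 h had -0.19 ± 0.10 (adjusted p = 1.0). Hs6st1, a heparan sulfate sulfotransferase, had -0.38 ± 0.34 and 0.38 ± 0.34 (adjusted p = 1.0 for both).

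The list of UDP-glucuronosyltransferases, which conjugate many of the same phenols and steroids, took every symbol that begins with Ugt1 or Ugt2. No Ugt1 gene had a probe set of its own symbol alone, so only 8 genes of the Ugt2 group were measured. Their median was -0.08 at 6 h, with 6 lower in both animals and 0 higher, where 36.3% and 21.0% of probe sets were. It was 0.01 at 24 h, with 3 each way, where 36.8% were lower and 24.6% higher. Ugt2b34l1 had -0.30 ± 0.14 and 0.27 ± 0.14 (limma, adjusted p = 0.936 and 1.0), Ugt2b -0.15 ± 0.14 at 6 h (adjusted p = 1.0) and Ugt2a1 0.36 ± 0.09 at 24 h (adjusted p = 0.904). For the supply of UDP-glucuronate 3 genes were measured, with medians of 0.20 and 0.15. Ugdh, which makes UDP-glucuronate, read 12.19 in vehicle of 6 h, beside 12.51 and 12.57 after TA, and Ugp2 13.75, 14.10 and 13.81. At 24 h they had 0.15 ± 0.16 and 0.40 ± 0.23 (adjusted p = 1.0 for both).

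Other conjugation enzymes had 15 measured genes, with medians of 0.15 and 0.10. Nnmt, which methylates nicotinamide, read 10.31 in vehicle of 6 h and 10.71 in both TA animals, and at 24 h 11.09, 11.78 and 11.62. Its differences were 0.40 ± 0.12 and 0.61 ± 0.12 (adjusted p = 0.832 and 0.904). Glyat, glycine N-acyltransferase, had 0.32 ± 0.14 at 6 h (adjusted p = 0.921) and Nat8 0.59 ± 0.26 at 24 h (adjusted p = 0.995).

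Of 25 listed transcription factors and receptors named as regulators of Sult genes, 22 were on the array, 17 passed the filter and 0 were called at either time. Their median was -0.17 at 6 h, with 10 lower in both animals and 2 higher, where 36.3% and 21.0% of probe sets were. It was 0.07 at 24 h, with 5 lower and 6 higher, where 36.8% and 24.6% were. Onecut1, a liver transcription factor, read 11.78 in vehicle of 6 h, beside 8.60 and 9.81 after TA, and at 24 h 8.40, 10.31 and 10.19. Its pools thus lay further apart than its animals. Its differences were -2.57 ± 0.57 and 1.85 ± 0.57 (adjusted p = 0.769 and 0.923). The other Onecut1 probe set had -2.89 at 6 h and 0.81 at 24 h. Nfe2l2, or Nrf2, had -0.67 ± 0.19 at 6 h (adjusted p = 0.832) and Hnf4a, which maintains hepatocyte genes, -0.33 ± 0.10 at 24 h (adjusted p = 0.925), and -0.21 and -0.29 on its other probe sets. Among 13 measured genes with a sex pattern in rat liver, medians were -0.04 and 0.00 and 0 were called. The list was not split by the sex with the higher level, so opposite shifts could cancel in these medians. Of the 13 genes, Cyp2a1 had 0.27 ± 0.19 and 0.58 ± 0.19 (adjusted p = 1.0 and 0.925), Cyp3a2 -0.37 ± 0.11 at 24 h (adjusted p = 0.909) and Hsd17b2 -0.22 ± 0.15 at 6 h (adjusted p = 1.0).

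**Figure D4:**
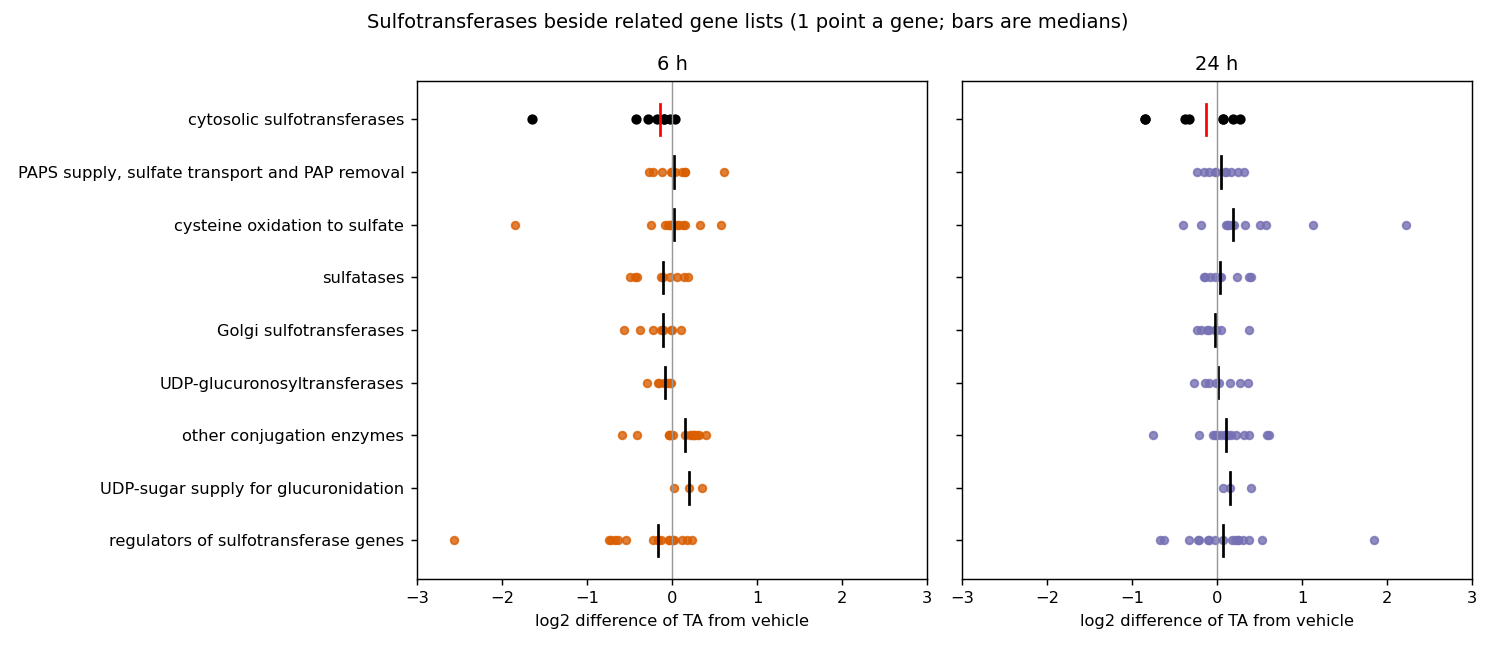
Log2 difference of TA from vehicle at 6 h (left) and 24 h (right), 1 point a gene, for the 8 sulfotransferases above 4 (top row) and 8 related lists. Bars are medians, and no gene shown passed limma's test at either time. The sulfotransferases have Sult1c2 at -1.65 and -0.85 at the low end, and the far points of other lists are Onecut1 and Sqor.

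The named genes whose values ran most like those of each variable member were looked up over the 6 arrays, taken here as 2 fluidics runs. With so few arrays, the best of many genes can correlate highly with almost any profile. For Sult1c2 they were Eapp (Pearson r = 0.994), Smad7 (0.967) and Bckdhb (0.964). Eapp spanned only 10.02 to 10.36 where Sult1c2 spanned 4.99 to 7.23, so that likeness here is of shape and not of size. For Sult2a6 they were Cep43 (0.997), Chmp3 (0.987) and Cib1 (0.985). For Sult2a2 they were C10h17orf49 (0.991), Ssx2ip (0.990) and Bcl11a (0.988). Bcl11a read 2.99 to 3.20, in the low range without a usable order. Ssx2ip was at 11.37 in TA animal 1 of 24 h and at 9.73 to 10.14 on the other arrays.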

How the data were processed

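The authors deposited 1 table of log2 values. It was made with R 2.0.1, affy 1.5.8, RMA and GCRMA, per the submitters' processing notes, which as used here do not tell the summary method of the table. The authors' instrument settings, which hold other values such as hybridisation times, served to group arrays into fluidics runs. The 57 control probe sets were left out, and 18625 of 31042 probe sets had a mean above the 40th percentile. Symbols come from the platform annotation, and those of the Sult probe sets were matched to RefSeq by gene identifier for 14 and by accession for 1, with 0 changed.

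In R 4.3.3, limma 3.58.1 fitted the group means of all 6 arrays, with 2 residual and 1.60 prior degrees of freedom, Benjamini-Hochberg adjustment over all tested probe sets and calls under 0.05, two-sided. Errors come from the TA animals alone and assume that a pool varies alike. On simulated arrays the fit was required only to return the mean size of added changes, with pools varying like other arrays. This does not show how many such changes would be called. The members and lists were chosen with earlier results of these data known. A gene with several probe sets is given by the one with the highest mean. In each list the genes named are any called, the 2 with the smallest p at each time and those at least 2-fold from the pool in both animals. For members ranging over at least 1, the 3 best correlated genes are named. Precision is limited by the number of arrays.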

Additional observations from a re-analysis of the deposited data

Results flagged for a closer look

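Sult1a1, Sult1b1 and Sult1e1 lay on opposite sides of the vehicle pool at the 2 times, lower in both TA animals at 6 h and higher in both at 24 h. The difference of the effects, 24 h minus 6 h, was 0.37 ± 0.33 (SE) for Sult1a1, 0.10 ± 0.15 for Sult1b1 and 0.17 ± 0.17 for Sult1e1. None of the 3 passed limma's test of that difference (adjusted p = 1.0 for each), and several single differences were as small as 0.01.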

How the results depend on the processing

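No Sult gene above 4 was called under any alternative run, and the smallest adjusted p was 0.164. Filters, priors and the replicate block change only the tests and leave each difference as it is. Leaving out 1 TA animal at a time gave, for TA of 24 h against 6 h, -0.09 to 1.08 for Sult1c2, -0.13 to 1.64 for Sult2a6 and -0.19 to 0.99 for Sult2a2. It gave -1.73 to 0.04 for Sult2a6 and -0.32 to 0.86 for Sult2a2 at 24 h, and -0.07 to 0.14 for Sult2a2 at 6 h. For the difference of effects it gave -0.21 to 0.02 for Sult1c3, -1.32 to 0.45 for Sult2a6 and -0.36 to 0.83 for Sult2a2. Against the pool of the other time Sult1b1 was at 0.20 and -0.16, Sult2a2 at -0.13 at 6 h and Sult2a6 at 0.34 at 24 h. With both pools as 1 group Sult1b1 was at 0.09 and -0.04 and Sult2a2 at -0.05 at 6 h, and with quantile normalization Sult1b1 was at 0.01 at 6 h. Over all probe sets the count called was 1 at 6 h against the pool of the other time. At 24 h it was 2 with a prior trend, 0 with the 60th percentile filter, both pools or the other pool, and 0 to 2 without 1 animal. For the difference of effects it was 0 with that filter and 0 without any 1 animal. Replicate numbers mark different animals, with a correlation of -0.0789 between arrays numbered 1, and with the replicate block the count was 0 for the difference of effects. No Sult gene above 4 had a second probe set to average. The causes were not tested. Signal limits the 6 genes in the low range, which have no usable difference.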
